A study of Mus musculus with 6 samples.

Results

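The Cyp4a genes encode cytochrome P450 enzymes that hydroxylate the terminal (omega) carbon of fatty acids. The members described here are the 6 rows of the deposited gene table with the symbols Cyp4a10, Cyp4a12a, Cyp4a12b, Cyp4a14, Cyp4a31 and Cyp4a32, chosen by name from 45777 genes in all. Whole livers of C57BL/6 mice aged 10 weeks were used for RNA sequencing, with and without deletion of Pak4, a serine/threonine kinase, in hepatocytes. The WT group held 3 libraries from mice with floxed Pak4 on both alleles (Pak4 flox/flox), meaning that the gene is flanked by sites for Cre recombinase, with no Cre named in the labels. The Pak4_KO group held 3 libraries from Alb-Cre; Pak4 flox/flox mice, in which the albumin promoter makes Cre in hepatocytes. No treatment or feeding state is named for either group. Nothing in the labels ties a library to its own animal, and p-values accordingly describe only how far these libraries spread, which may be technical.

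The omega-hydroxylases sit in the endoplasmic reticulum membrane and take electrons from cytochrome P450 reductase. Their products are oxidised by alcohol and aldehyde dehydrogenases to dicarboxylic acids, which peroxisomes shorten by beta-oxidation. The same enzymes turn arachidonic acid into 20-HETE, a lipid that acts on blood vessels and the kidney. In mouse liver Cyp4a10 and Cyp4a14 are classical target genes of PPARα, a nuclear receptor activated by fatty acids, whereas Cyp4a12a is known for its higher expression in males.

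All 6 genes lie in 1 cluster on chromosome 4 of the mouse build GRCm38 (mm10), with coordinates from RefSeq. In order along the chromosome they are Cyp4a12a (NCBI gene 277753, 115299046 to 115332815), Cyp4a12b (13118, 115411624 to 115439034), Cyp4a14 (13119, 115486200 to 115496158), Cyp4a10 (13117, 115518287 to 115533649), Cyp4a31 (666168, 115563627 to 115579015) and Cyp4a32 (100040843, 115600927 to 115622507). Cyp4a14 is on the minus strand and the other 5 members are on the plus strand. The table also lists Cyp4a29, with 0 reads in all 6 libraries, and Cyp4a30b, with 2 reads in WT replicate 2 and 0 elsewhere.

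Differences between the transcripts, inside and outside the coding sequence, decide which reads can be told apart. The coding stretch around the codons of the cysteine that holds the heme iron is shown for every member. It spans 60 coding bases of GENCODE M21 transcripts on GRCm38, written 5′ to 3′ on the sense strand across 1 exon junction, and capitals mark bases that differ from Cyp4a10.
Cyp4a10 (chr4:115529487-115532558, plus strand): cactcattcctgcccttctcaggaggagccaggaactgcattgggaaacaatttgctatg
Cyp4a31 (chr4:115574935-115577963, plus strand): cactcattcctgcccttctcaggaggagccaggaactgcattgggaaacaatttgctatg
Cyp4a32 (chr4:115614865-115621461, plus strand): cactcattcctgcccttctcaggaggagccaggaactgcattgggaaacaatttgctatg
Cyp4a14 (chr4:115487284-115489820, minus strand): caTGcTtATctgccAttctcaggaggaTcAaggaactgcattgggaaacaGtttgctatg
Cyp4a12a (chr4:115328971-115331861, plus strand): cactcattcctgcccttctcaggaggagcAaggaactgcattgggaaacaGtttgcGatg
Cyp4a12b (chr4:115435225-115438084, plus strand): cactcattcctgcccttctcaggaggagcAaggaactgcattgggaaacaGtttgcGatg
Cyp4a10, Cyp4a31 and Cyp4a32 were identical here, as were Cyp4a12a and Cyp4a12b, while Cyp4a14 differed from Cyp4a10 at 9 of the 60 bases.

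Over the whole coding sequence the members fell into the same 3 sets. Cyp4a12a and Cyp4a12b differed at 23 of 1524 bases (98.5% identity). Cyp4a10 had 97.2% identity with Cyp4a32 and 96.6% with Cyp4a31, and Cyp4a31 had 96.0% with Cyp4a32. Cyp4a14 had at most 76.9% identity with any other member. The coding stretch in which each near-identical set differs most shows how few coding bases separate the copies. Capitals mark the positions that differ within the set.
Cyp4a10 (chr4:115519640-115519699, plus strand): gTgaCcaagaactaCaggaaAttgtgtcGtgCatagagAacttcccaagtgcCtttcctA
Cyp4a31 (chr4:115565020-115565079, plus strand): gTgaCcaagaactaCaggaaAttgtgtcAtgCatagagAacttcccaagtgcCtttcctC
Cyp4a32 (chr4:115602270-115602329, plus strand): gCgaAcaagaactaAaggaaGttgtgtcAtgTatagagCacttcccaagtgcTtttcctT
Cyp4a12a (chr4:115326309-115326681, plus strand): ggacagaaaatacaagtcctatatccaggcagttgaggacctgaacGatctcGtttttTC
Cyp4a12b (chr4:115432561-115432934, plus strand): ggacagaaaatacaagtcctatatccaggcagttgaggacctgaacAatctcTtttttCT
The Cyp4a10 set differed at 9 of these 60 bases and the Cyp4a12 pair at 4. Of all stretches of 100 bases in the Cyp4a12a transcript, 35.8% also occurred in Cyp4a12b, and 36.2% of those in Cyp4a12b occurred in Cyp4a12a. The share found in another gene was 20.1% for Cyp4a32, 12.7% for Cyp4a10 and 8.22% for Cyp4a31. These shares rest on unlike lengths. The Cyp4a32 transcript had 1530 bases, 1527 of them coding, against 2109 bases for Cyp4a10 and 2509 for Cyp4a31. The values of these 5 members are therefore uncertain one by one, since reads from a shared stretch could have been counted for either copy. For Cyp4a14 the share was 0 of 2397 stretches. The search covered GENCODE M21 transcripts on the sense strand only, so it does not settle reads of the overlapping LOC115489899, described below. Read length and the handling of reads with several matches are not stated in the labels or file headers.

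Sequencing totals were 39603272 to 52521400 reads per library. Pak4 itself had 235, 340 and 324 reads in WT replicates 1 to 3 and 58, 106 and 95 reads in Pak4_KO replicates 1 to 3 (log2 fold change -1.82, SE 0.24, adjusted p = 0.0169, edgeR). That adjusted p was 0.0562 without WT replicate 1, 0.0608 without WT replicate 2 and 0.0936 without Pak4_KO replicate 3. All 10 hepatocyte markers were tested, and their summed level was 59832 to 76739.8 CPM (counts scaled to the library total with TMM factors) in WT and 69556 to 78664 CPM in Pak4_KO. Among the cells a liver sample could hold besides hepatocytes, summed markers of Kupffer cells, endothelium, stellate cells, bile ducts, adipocytes and red cells overlapped between the groups. Within these lists, all 8 Kupffer cell markers had negative log2 fold changes, with a median of -0.27, and 7 of 8 bile duct markers had positive ones, with a median of 0.67. All 8 endothelial markers (median 0.12) and 6 of 8 stellate markers (median 0.16) were also positive. DESeq2 called 1 higher in each of the bile duct, endothelial and stellate lists, beside 1.08% of all genes, and edgeR called none of them. The adipocyte markers summed to 7.36 to 7.62 CPM in WT and 6.09 to 11.4 CPM in Pak4_KO. The part of these shifts in the results was not tested. The Y-linked genes Ddx3y, Kdm5d, Eif2s3y and Uty were expressed in both groups. Summed neutrophil markers (32.8 to 59.6 CPM in WT, 21.1 to 26.9 in Pak4_KO), T, NK and B cell markers (2.48 to 4.44 against 1.76 to 2.27 CPM) and exocrine pancreas markers (10.2 to 12.0 against 2.98 to 9.86 CPM, with 6 of 8 at 0) were lower in every Pak4_KO library, and their part in the results was not tested. Markers of the kidney proximal tubule, which also expresses Cyp4a genes, summed to 1.01 to 2.42 CPM in WT and 0.400 to 0.779 CPM in Pak4_KO, with 5 of 8 at 0 reads in every library.

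Cyp4a14, Cyp4a10 and Cyp4a31 stood higher in every Pak4_KO library than in every WT library, while Cyp4a32, Cyp4a12a and Cyp4a12b overlapped between the groups. None of the 6 was called by edgeR's quasi-likelihood test at a Benjamini-Hochberg adjusted p under 0.05 over 16197 genes, in a comparison that called 0.469% of genes, 0.265% higher and 0.204% lower. At an unadjusted p under 0.05 the count was 3 of 6, all higher, beside 8.21% of all genes in either direction and 4.51% higher. The 3 of 6 without overlap, all higher in Pak4_KO, stand beside 13.4% of all genes in either direction and 7.35% higher. The DESeq2 Wald test called the same 3 genes higher and called 1.08% of all genes higher, and limma-trend on log2(TPM + 1) called 0 members higher and 0.253% of all genes. In whole liver, fewer cells of a type and less RNA per cell cannot be told apart. The levels given next are the authors' TPM, which are scaled by gene length and so can be set side by side between genes.

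Cyp4a14, a strongly inducible omega-hydroxylase of mouse liver, stood at 15.8, 131 and 47.7 TPM in WT replicates 1, 2 and 3, and at 463, 566 and 1113 TPM in Pak4_KO replicates 1, 2 and 3. The lowest Pak4_KO library was 3.54-fold above the highest WT library, WT replicate 2. Group means were 64.7 ± 59.3 TPM in WT and 714 ± 349 TPM in Pak4_KO (SD, n = 3 each). The fitted log2 fold change was 3.36 (SE 0.71, 95% interval 1.74 to 4.97), or 10.3-fold, with an edgeR adjusted p of 0.132. Without WT replicate 2 it was 4.38 with an edgeR adjusted p of 0.0416. Across the 6 fits without 1 library the value ran from 2.89 to 4.38 and the edgeR adjusted p from 0.0416 to 0.367. Its WT libraries were 8.27-fold apart, and on the log2 CPM scale that range was at percentile 98.7 of all genes tested.

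LOC115489899, a long non-coding RNA whose RefSeq gene (115483614 to 115497923) contains Cyp4a14, had 58 reads in WT replicate 2, 0 in the other 2 WT libraries, and 99, 98 and 92 reads in the Pak4_KO libraries. It was named after its values were seen. Its reads came from the same WT library in which Cyp4a14 was highest, and without a stated strand setting for the counting, reads of it and of Cyp4a14 cannot be told apart.

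Cyp4a10, which hydroxylates lauric and arachidonic acid, followed the same order of WT libraries. Its levels were 45.9, 178 and 106 TPM in WT replicates 1, 2 and 3 and 411, 306 and 526 TPM in Pak4_KO replicates 1, 2 and 3. The lowest Pak4_KO library exceeded the highest WT library 1.72-fold. Means were 109.8 ± 66.0 TPM in WT and 414 ± 110.1 TPM in Pak4_KO (SD, n = 3 each), with a log2 fold change of 1.80 (SE 0.44, 95% interval 0.80 to 2.81, adjusted p = 0.222, edgeR).

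Cyp4a31, a close copy of Cyp4a10, was the least abundant member in every library. It stood at 3.28, 11.2 and 6.42 TPM in WT and at 22.0, 13.4 and 20.8 TPM in Pak4_KO, in replicate order. The groups did not overlap, but WT replicate 2 and Pak4_KO replicate 2 were 1.2-fold apart. The log2 fold change was 1.32 (SE 0.40, 95% interval 0.39 to 2.24, adjusted p = 0.358, edgeR).

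Cyp4a32, the third copy of that set, overlapped between the groups. It stood at 37.9, 89.4 and 32.6 TPM in WT and at 94.5, 62.5 and 69.8 TPM in Pak4_KO, with WT replicate 2 above 2 of the 3 Pak4_KO libraries. The log2 fold change was 0.44 (SE 0.36, 95% interval -0.39 to 1.27, adjusted p = 0.842, edgeR). It was 1.03 without WT replicate 2 (adjusted p = 0.167, edgeR), and the 6 fits without 1 library ran from 0.19 to 1.03. Because reads can be split among these 3 copies, their counts were also summed and refitted with all other genes. The sum was 103, 349 and 185 CPM in WT and 634, 478 and 691 CPM in Pak4_KO, with no overlap. Its log2 fold change was 1.50 (SE 0.39, 95% interval 0.61 to 2.39, adjusted p = 0.255, edgeR). Without WT replicate 2 the sum reached 2.06, with an edgeR adjusted p of 0.0492.

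Cyp4a12a, the male-predominant 20-HETE synthase, stood at 108, 100.4 and 177 TPM in WT and at 177, 111 and 131 TPM in Pak4_KO. WT replicate 3 and Pak4_KO replicate 1 were the high libraries, 1 in each group. The log2 fold change was 0.03 (SE 0.26, 95% interval -0.55 to 0.62, adjusted p = 0.996, edgeR), and its sign turned in 3 of the 6 fits without 1 library. Cyp4a12b, its near-identical copy, stood at 55.1, 62.3 and 66.4 TPM in WT and at 80.0, 47.5 and 56.6 TPM in Pak4_KO. Its log2 fold change was -0.08 (SE 0.20, 95% interval -0.54 to 0.37, adjusted p = 0.964, edgeR), and its sign turned in 2 of those 6 fits. The pair summed had a log2 fold change of 0.00 to 2 decimals, with a 95% interval of -0.53 to 0.53, so the data are compatible with a change of up to about that size in either direction.

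**Figure D1:**
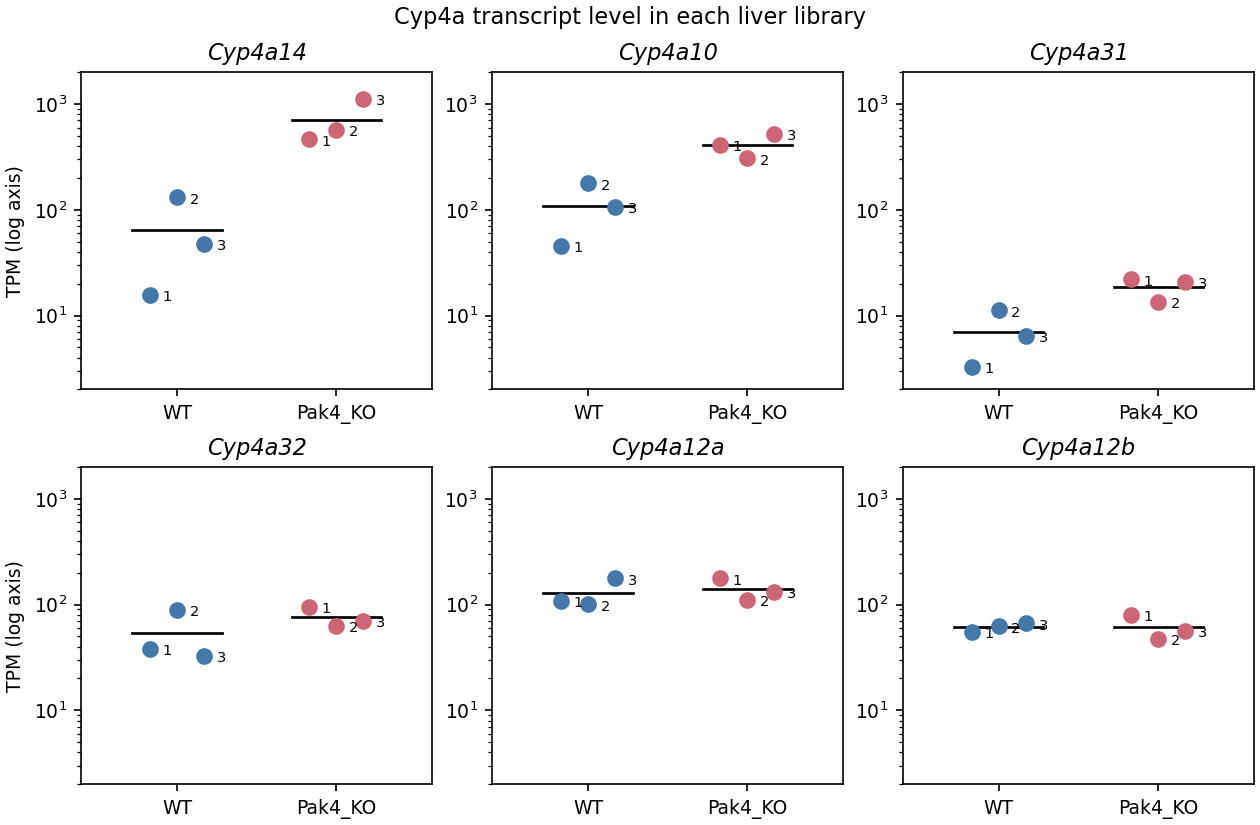
TPM of each Cyp4a gene on a log axis, with 1 point per library labelled by replicate number and a bar at the group mean (n = 3 per group). Cyp4a14, Cyp4a10 and Cyp4a31 do not overlap between WT and Pak4_KO, and WT replicate 2 is the highest WT library in these 3 genes and in Cyp4a32.

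**Figure D2:**
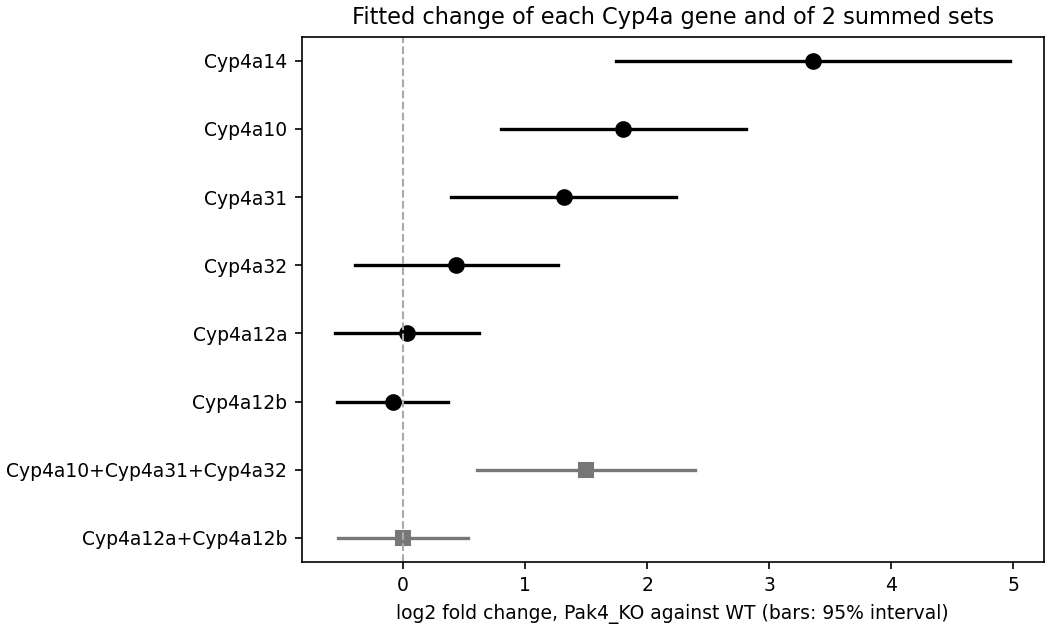
Fitted log2 fold change of Pak4_KO against WT for each gene (circles) and for the summed near-identical copies (squares), with 95% intervals. The intervals of Cyp4a14, Cyp4a10, Cyp4a31 and the Cyp4a10 set lie above 0, although none passed after adjustment over all genes, and those of Cyp4a32, Cyp4a12a, Cyp4a12b and the Cyp4a12 pair include 0.

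The order of levels among the members differed between the groups. In all 3 Pak4_KO libraries the order was Cyp4a14, Cyp4a10, Cyp4a12a, Cyp4a32, Cyp4a12b and Cyp4a31, from high to low TPM. In WT, Cyp4a12a led in replicates 1 and 3 and Cyp4a10 in replicate 2, and Cyp4a31 was last in all 3. The WT means of Cyp4a12a (129 ± 42.3 TPM) and Cyp4a10 (109.8 ± 66.0 TPM) were within their SD of each other, as were those of Cyp4a14 (64.7 ± 59.3), Cyp4a12b (61.3 ± 5.71) and Cyp4a32 (53.3 ± 31.4). In Pak4_KO the means of Cyp4a32 (75.6 ± 16.7 TPM) and Cyp4a12b (61.4 ± 16.8 TPM) were likewise within 1 SD.

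The summed TPM of the 6 genes was 266, 572 and 436 in WT and 1247, 1107 and 1918 in Pak4_KO, and every Pak4_KO sum exceeded every WT sum. Cyp4a14 made up 5.94%, 22.9% and 10.9% of the sum in WT and 37.1%, 51.2% and 58.1% in Pak4_KO. Cyp4a12a made up 40.6%, 17.6% and 40.6% in WT and 14.2%, 10.0% and 6.86% in Pak4_KO. The share of Cyp4a10 overlapped, at 17.2% to 31.1% in WT and 27.4% to 32.9% in Pak4_KO. The level of Cyp4a12a itself overlapped between the groups, so its smaller share goes with the larger sum.

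**Figure D3:**
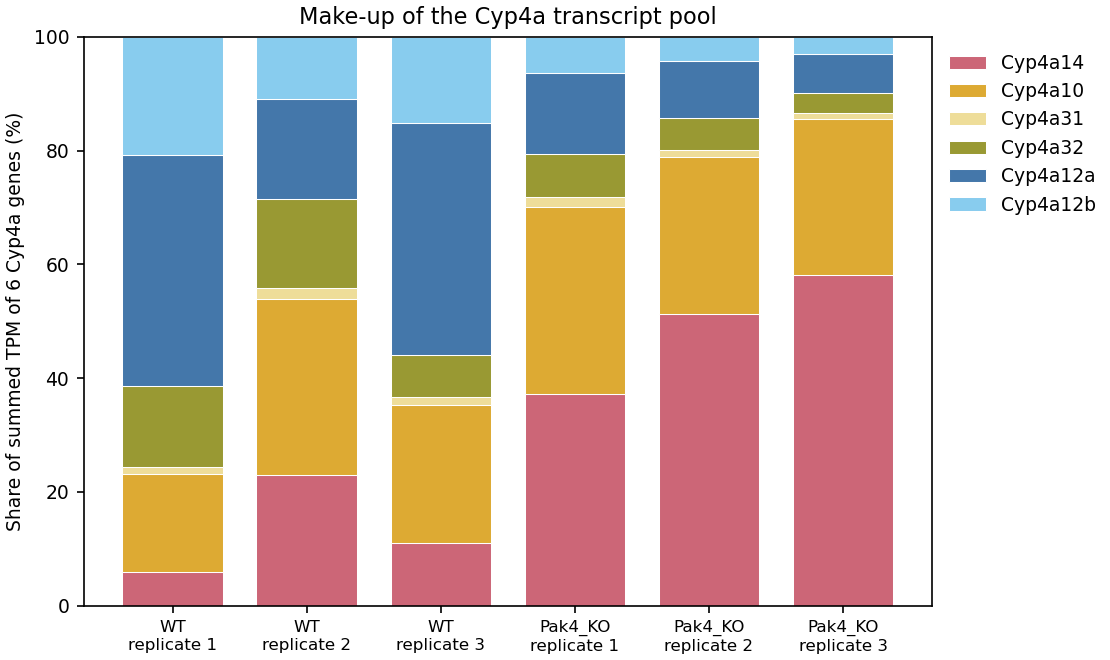
Share of each gene in the summed TPM of the 6 Cyp4a genes, 1 stacked bar per library, in percent. Cyp4a14 holds 5.94% to 22.9% of the sum in WT and 37.1% to 58.1% in Pak4_KO, and Cyp4a12a is the largest part in WT replicates 1 and 3.

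Ratios between members within a library do not depend on how libraries were scaled. For all 15 pairs the log2 TPM ratio was compared between the groups by an exact permutation test over the 20 ways to choose 3 of 6 libraries, two-sided, which cannot give a p below 0.10. This comparison was added after the values were seen. The ratio did not overlap between the groups for 12 pairs, each at that smallest p of 0.1 (exact permutation test, Benjamini-Hochberg adjusted p = 0.125 over the 15 pairs). Any pair without overlap must get that p, so it only restates the separation already seen and adds no support. The 15 pairs are built from the same 6 genes, so they are not separate results, and no share over other gene pairs is given. Ratios within a near-identical set, such as Cyp4a10 to Cyp4a32, also depend on how reads were split between the copies. The log2 ratio of Cyp4a12a to Cyp4a14 was 2.77, -0.38 and 1.89 in WT and -1.39, -2.35 and -3.08 in Pak4_KO, a mean difference of 13.0-fold. The log2 ratio of Cyp4a10 to Cyp4a14 was 1.54, 0.44 and 1.15 in WT and -0.17, -0.89 and -1.08 in Pak4_KO, so Cyp4a10 exceeded Cyp4a14 in every WT library and in no Pak4_KO library. The log2 ratio of Cyp4a10 to Cyp4a32 was 0.28, 0.99 and 1.70 in WT and 2.12, 2.29 and 2.91 in Pak4_KO. Cyp4a12a and Cyp4a12b kept overlapping ratios, at 0.69 to 1.42 in WT and 1.15 to 1.23 in Pak4_KO (exact permutation p = 0.6).

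The members whose groups did not overlap were next to each other on the chromosome. Cyp4a14, Cyp4a10 and Cyp4a31 are consecutive among the members, followed by Cyp4a32, and the overlapping pair Cyp4a12a and Cyp4a12b lies on the other side of Cyp4a14. Within 500 kb of the cluster, 15 other genes were tested and 0 were called by edgeR, DESeq2 or limma, with 0 at an unadjusted p under 0.05. The smallest edgeR adjusted p among these neighbours was 0.642, and their log2 fold changes ran from -0.09 to 2.33, the last being LOC115489899. Cyp4b1, the nearest tested cytochrome P450 outside the Cyp4a genes, had a fitted log2 change of 0.35 (SE 0.31, adjusted p = 0.858, edgeR).

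**Figure D4:**
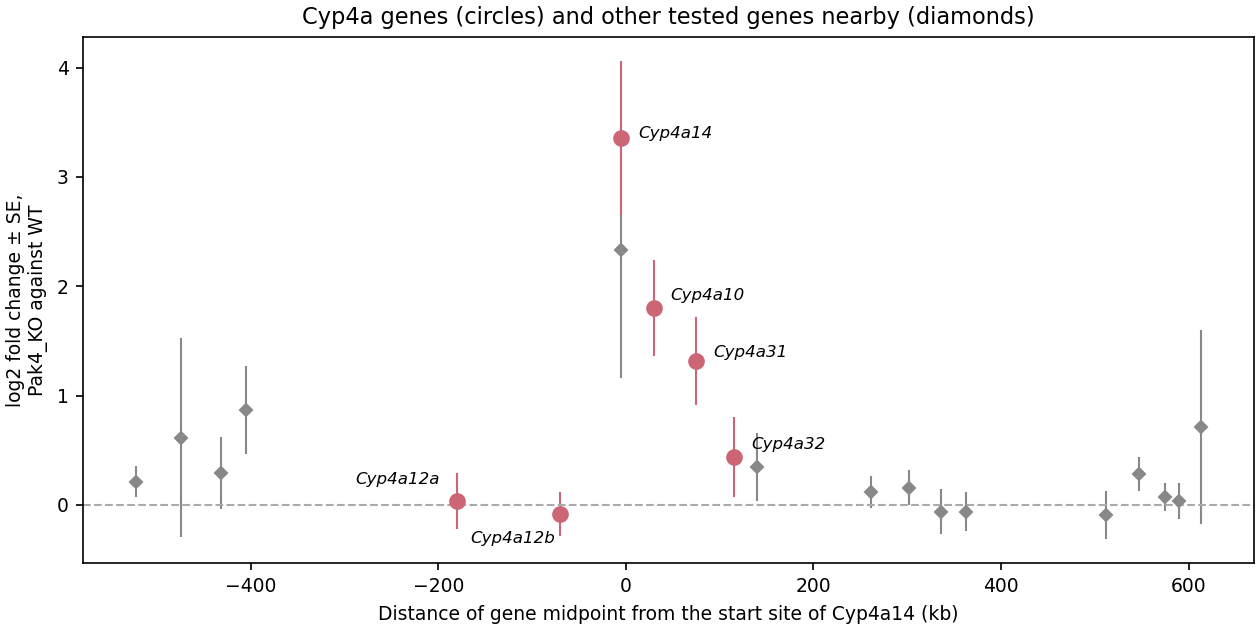
Log2 fold change ± SE of the 6 Cyp4a genes (circles) and the 15 other tested genes within 500 kb (diamonds), against the distance in kb of each gene's midpoint from the start site of Cyp4a14. Cyp4a14 stands at 3.36, Cyp4a10 at 1.80 and Cyp4a31 at 1.32, and the diamond under Cyp4a14 is the overlapping LOC115489899 at 2.33.

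Among PPARα targets other than the Cyp4a genes, edgeR called 2 higher in Pak4_KO and none lower at an adjusted p under 0.05. Over all genes it called 0.265% higher and 0.204% lower. Of 45 tested members of the list, 44 had a positive log2 fold change, with a median of 0.43 against 0.00 over all genes tested, and 28 did not overlap between the groups, all higher, beside 7.35% of all genes. DESeq2 called 13 of the list higher, beside 1.08% of all genes. Acot1, an acyl-CoA thioesterase, stood at 15.6, 10.2 and 22.0 CPM in WT and 56.4, 87.5 and 129 CPM in Pak4_KO (log2 fold change 2.51, SE 0.36, adjusted p = 0.0262, edgeR). Vnn1, the pantetheinase, stood at 11.9, 19.2 and 13.8 CPM in WT and 49.9, 37.7 and 65.3 CPM in Pak4_KO (log2 fold change 1.77, SE 0.25, adjusted p = 0.0244, edgeR). WT replicate 2, the highest WT library for Cyp4a14, was the highest for Vnn1 and the lowest for Acot1. The count of 2 members called higher became 1 without WT replicate 1, WT replicate 2 or Pak4_KO replicate 2. It became 0 without Pak4_KO replicate 3 and 6 without Pak4_KO replicate 1. Acot1 had edgeR adjusted p-values of 0.122, 0.0676, 0.135 and 0.0936 without WT replicates 1 and 2 and Pak4_KO replicates 2 and 3. Vnn1 had 0.0923, 0.0705, 0.0682 and 0.0890 without WT replicates 1 and 3 and Pak4_KO replicates 1 and 3.

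The partners of omega-oxidation were tested as a list of 26 genes for electron transfer, alcohol and aldehyde oxidation and peroxisomal shortening, some of which, Ehhadh among them, also stand in the PPARα list. None was called by edgeR, 16 had a positive log2 fold change, the median was 0.18, and 10 stood without overlap higher and 1 lower, beside 7.35% and 6.06% of all genes. At an unadjusted p under 0.05, 7 stood higher (4.51% of all genes) and 1 lower, DESeq2 called 4 higher (1.08% of all genes) and limma called 0, and without Pak4_KO replicate 1 edgeR called 1. Ehhadh, the peroxisomal enzyme needed to shorten dicarboxylic acids, stood at 227, 279 and 277 CPM in WT and 424, 660 and 971 CPM in Pak4_KO (log2 fold change 1.39, SE 0.28, adjusted p = 0.109, edgeR). Chosen with its values in view, the fatty aldehyde dehydrogenase Aldh3a2 had a log2 difference of 0.75 (SE 0.20, adjusted p = 0.256, edgeR) and the P450 reductase Por, chosen likewise, one of 0.06 (SE 0.13, adjusted p = 0.959, edgeR).

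Regulators of the family showed no gene called by edgeR among 33 tested, with a median log2 fold change of -0.06. Without overlap, 3 members stood lower, beside 6.06% of all genes. At an unadjusted p under 0.05 the count was 2, both lower, beside 8.21% of all genes in either direction. DESeq2 called 1 lower, beside 159 over all genes, and limma called 0. Bcl6, a repressor that acts with growth hormone signals on sex-biased liver genes, stood at 16.0, 18.4 and 14.9 CPM in WT and 10.2, 8.74 and 9.72 CPM in Pak4_KO (log2 fold change -0.78, SE 0.15, adjusted p = 0.0977, edgeR). Igf1, a growth hormone target, had a fitted log2 change of -0.36 (SE 0.15, adjusted p = 0.596, edgeR). Ppara, which encodes PPARα itself, was named after its values were seen and had one of 0.30 (SE 0.28, adjusted p = 0.875, edgeR), and its corepressor Ncor1 one of 0.05 (SE 0.13, adjusted p = 0.969, edgeR).

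Because Cyp4a12a and Cyp4a12b are male-biased, the other sex-biased liver genes are set beside them. Of 30 tested male-biased genes, 28 stood below 0 in log2 fold change, the median was -0.62, and 15 were lower without overlap, against 6.06% of all genes. DESeq2 called 6 of them lower, beside 159 of 16189 genes, and limma on log2(TPM + 1) called 1, beside 22 of 16197 genes. The 2 called lower by edgeR, beside 0.204% of all genes, were Sult5a1, a sulfotransferase (log2 fold change -2.64, SE 0.38, adjusted p = 0.0269, edgeR), and Moxd1, a copper monooxygenase (-8.44, SE 1.29, adjusted p = 0.0369, edgeR). All Pak4_KO reads of Moxd1 came from replicate 1. With 2 of its 3 Pak4_KO libraries at 0, the size for Moxd1 was poorly fixed, from -7.37 without WT replicate 1 to -13.6 without Pak4_KO replicate 1, and -3.63 with an adjusted p of 0.126 by limma on log2(TPM + 1). The count of 2 became 1 without Pak4_KO replicate 1, and 0 when WT replicate 1 or 2 or Pak4_KO replicate 2 or 3 was left out. Cyp4a12a and Cyp4a12b, at 0.03 and -0.08 with intervals that include 0 and signs that turned in fits without 1 library, stood above that median. Of 20 tested female-biased genes, 18 stood above 0, the median was 0.85, and 9 were higher without overlap, beside 7.35% of all genes. At an unadjusted p under 0.05, 8 stood higher (4.51% of all genes) and 1 lower, and DESeq2 called 4 higher (1.08% of all genes) and 1 lower. The 1 called higher by edgeR, beside 0.265% of all genes, was Cyp2a4, a steroid hydroxylase (log2 fold change 5.60, SE 0.36, adjusted p = 0.000349, edgeR).

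**Figure D5:**
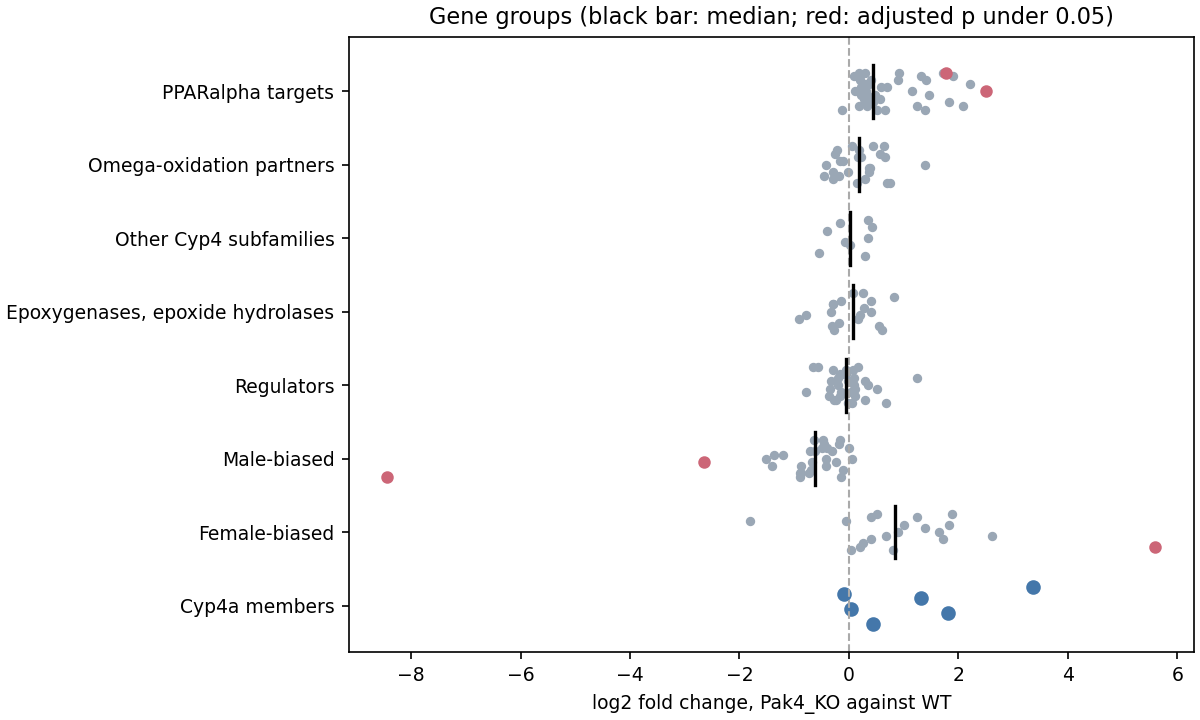
Log2 fold change of Pak4_KO against WT for the tested genes of 7 lists and for the 6 Cyp4a genes, 1 point per gene, with black bars at list medians and red points at an edgeR adjusted p under 0.05. The medians are 0.43 for PPARα targets and -0.62 for male-biased genes, and Cyp4a14 at 3.36 lies to the right of every tested PPARα target.

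The genes whose pattern was most like that of a member were ranked by the root mean square difference of log2 CPM over the 6 libraries, after each gene's own mean was removed. The candidates were 11279 named protein-coding genes with a mean of at least 1 CPM over the 6 libraries. For Cyp4a14 they were Slc16a5, a monocarboxylate transporter family member (1.02), G0s2, an inhibitor of triglyceride lipolysis (1.03), and Cfd, the adipsin of adipocytes (1.09). Slc16a5 stood at 3.56, 20.2 and 5.35 CPM in WT and 12.2, 34.8 and 53.7 CPM in Pak4_KO, so WT replicate 2 was again the high WT library and overlapped Pak4_KO. G0s2 stood at 43.9, 57.8 and 23.4 CPM in WT and 193, 266 and 352 CPM in Pak4_KO. Cfd stood at 0, 0.105 and 0 CPM in WT and 0.236, 3.09 and 2.62 CPM in Pak4_KO. It passed the filter on mean CPM only through its Pak4_KO libraries, so its likeness to Cyp4a14 is partly built in. Cfd is itself 1 of the 6 adipocyte markers. Of these markers, Adipoq and Lep were at 0 reads in all libraries. The 2 that could be tested were both above 0 in log2 fold change, but only 1 stood higher without overlap. By edgeR, 0 of them were called. Their median, 2.86, is the midpoint of 2 values, those of Cfd and Pparg. Pparg, named after its values were seen, overlapped between the groups (log2 fold change 0.03, SE 0.19, adjusted p = 0.994, edgeR). The median therefore rests on Cfd alone. That median does not show that both rose by so much. For Cyp4a12a, whose values differed less between libraries than those of Cyp4a14, they were Zfp956 (0.058), Zfp799 (0.12) and Emcn (0.13). Each of these was highest in WT replicate 3 and Pak4_KO replicate 1. These likenesses are descriptions over 6 libraries with no test.

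The Cyp4a values rest on 192 to 74760 reads per gene and library, so counting error is small beside the spread between libraries.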

How the data were processed

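Trizol-extracted liver RNA gave 3 WT and 3 Pak4_KO libraries, made with a strand-keeping TruSeq mRNA kit, per the labels' protocols. Named in the submitters' processing notes are the build mm10 and StringTie 2.1.3b, Bowtie2 2.3.4.1, HISAT2 2.1.0, FastQC 0.11.7 and bcl2fastq 2.20.0. Their order, the annotation release and the counting options: not given in the sources used here. Per gene, the authors deposited whole-number read counts, not normalized, per the file headers. The deposited table also gives FPKM (scaled by length and depth) and TPM (scaled to a fixed total), both computed by the authors, per the file headers.

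The test was edgeR 4.0.16 on these counts, in R 4.3.3 (filterByExpr, TMM factors, glmQLFit and glmQLFTest, two-sided, Benjamini-Hochberg over 16197 genes). The SE is |log2 fold change| over the root of F, and 95% intervals use the fit's degrees of freedom. CPM are TMM-scaled, with a prior count of 2 on the log2 scale. The procedure was tested on simulated data. Coding sequences were aligned globally with Biopython 1.88, on the GENCODE M21 transcript that carries each member's deposited RefSeq accession.

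Alternatives were DESeq2 1.42.0 size factors, library size only, the DESeq2 Wald test, no filter, a filter of 10 reads in each library, limma 3.58.1 on log2(TPM + 1) and log2(TPM + 0.1), a replicate block, and leaving out each library. The members and lists were chosen with earlier results of these data known. By rule the text names the 6 members, Pak4, up to 4 called members of each list (or the 2 with the smallest raw p), and the 3 genes most like Cyp4a14 and Cyp4a12a. A result that the rule would name is not reported here. A protein comparison was planned and not made, and RefSeq promoter windows were at hand for 1 of the 6 members, Cyp4a32, so promoters are not described.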

Additional observations from a re-analysis of the deposited data

How the results depend on the processing

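The DESeq2 Wald test called 3 Cyp4a members higher (Cyp4a10, Cyp4a14 and Cyp4a31), and it called the Cyp4a10, Cyp4a31 and Cyp4a32 sum at 1.50 (adjusted p = 0.00287). It called 175 genes higher and 159 lower, against 43 and 33 with edgeR. A filter of 10 reads in every library left 16 genes called higher. With the replicate block, 1 member was called (Cyp4a14, 3.81, edgeR adjusted p = 0.0391). The numbers share no stated animal or litter, and deviations of same-numbered libraries correlated at 0.07, -0.20 and 0.15, so they were not taken as pairs. The Cyp4a12a and Cyp4a12b sum, near 0, turned sign with library size only (0.051), the 10-read filter (0.0021), limma on log2(TPM + 1) (0.0817) and on log2(TPM + 0.1) (0.0821). Leaving out 1 library at a time gave -0.23 to 0.24 for that sum, -0.18 to 0.36 for Cyp4a12a, -0.33 to 0.044 for Cyp4a12b, 0.19 to 1.03 for Cyp4a32, 1.41 to 2.35 for Cyp4a10, 0.96 to 1.85 for Cyp4a31, 2.89 to 4.38 for Cyp4a14 and 1.16 to 2.06 for the Cyp4a10 set. In the same fits 0 to 1 members were called, the 1 being Cyp4a14 without WT replicate 2, with 22 to 34 genes called higher and 13 to 46 lower. PPARα targets called higher numbered 0 to 6, omega-oxidation partners 0 to 1, male-biased genes called lower 0 to 2 and female-biased genes called higher 1 to 2. The cause of these moves was not tested. Shares from FPKM equal those from TPM by construction.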

Other observations

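Other Cyp4 subfamilies, whose enzymes include omega-hydroxylases of longer fatty acids and of leukotrienes, had no gene called by edgeR among 9 tested, with 5 positive and 4 negative log2 fold changes and a median of 0.02. At an unadjusted p under 0.05 the count was 1, beside 8.21% of all genes in either direction, and DESeq2 and limma called 0. Cyp4f17 had a fitted log2 change of 0.43 (SE 0.17, adjusted p = 0.556, edgeR) and Cyp4f14, a leukotriene hydroxylase, one of -0.40 (SE 0.20, adjusted p = 0.664, edgeR). Cyp4x1, the other Cyp4 gene at the edge of the cluster, had 0 reads in all 6 libraries.

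The epoxygenases, which act on arachidonic acid beside the omega-hydroxylases, and the epoxide hydrolases had no gene called by edgeR among 19 tested. Their median was 0.07. Without overlap, 3 members stood higher and 3 lower, beside 7.35% and 6.06% of all genes. At an unadjusted p under 0.05, 3 stood higher and 2 lower, beside 8.21% of all genes in either direction. DESeq2 called 1 higher (1.08% of all genes) and 1 lower, and limma called 0. Ephx1, the microsomal epoxide hydrolase, had a fitted log2 change of 0.54 (SE 0.14, adjusted p = 0.255, edgeR), and Cyp2c70, which makes muricholic acids in mouse liver, one of -0.91 (SE 0.25, adjusted p = 0.275, edgeR).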
